A study of Mus musculus with 12 samples.

Results

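RNA pulled down with an antibody against the L1 ORF1 protein (ORF1p) was compared with RNA of the whole testis extract it came from. The comparison takes the 3 libraries labelled IP and the 3 labelled TOTAL, 6 of the 12 libraries of the series, chosen by their labels. All 12 libraries were made from testes of C57BL/6 mice of about 3 months of age that lacked Maelstrom (Mael-/-), so that no wild-type testis enters any value. TOTAL was the cleared lysate brought to 10 mM EDTA, which splits ribosomes into subunits, and received no antibody. INPUT was the pool of fractions 5 to 8 of that lysate after a 10 to 50% sucrose gradient, IP was pulled from INPUT on beads that carried an antibody against LINE-1 ORF1p (Abcam ab216324), and BO was pulled from INPUT on beads only. IP vs. TOTAL thus spans both the gradient and the antibody, and IP vs. INPUT and IP vs. BO values, which rest on the same IP libraries, are set beside it. The labels do not say whether the 3 libraries of a group came from separate animals, so p-values measure the spread between these libraries, which may be technical.

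L1 elements are the autonomous LINE retrotransposons of mammals. Their first open reading frame encodes ORF1p, an RNA-binding protein that coats L1 RNA and, with the ORF2 protein, forms the particle from which new copies are made. Maelstrom acts in the piRNA pathway, which silences transposons in the male germ line, and in mutant testes L1 is expressed and germ cells stop in meiosis. A testis also holds somatic cells that support the germ cells, among them Sertoli cells inside the tubules and steroid-producing Leydig cells between them.

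Reads were recovered per library for repeat names only, and numbered 1384904 to 2003193 in IP and 6021800 to 7282171 in TOTAL (3045169 to 3880641 in INPUT and 1712212 to 3512997 in BO). The IP libraries had fewer reads in all, but on TEs their 1198427 to 1693618 reads overlapped the 1535094 to 2860756 of TOTAL, and 1 read was worth 0.975 to 1.47 normalized counts in IP and 0.619 to 1.10 in TOTAL. BO replicate 3 stood apart, with 52.1% of its repeat reads on LSU rRNA, and counts of calls were repeated without it. TOTAL replicate 1 stood apart from the other TOTAL libraries in short RNAs, which is given beside the small RNAs below. For genes and single loci the values used are the authors' means of the normalized counts per group. No value per library was used, so the gene differences below are given with no replicate error and no p-value of their own, and their depth is unknown. Mael was listed at a mean of 0 in IP and 0.65 in TOTAL. Of the spermatid transcripts, those of the protamine Prm1 and the transition protein Tnp1 had means of 22.0 and 30.1 in TOTAL, and those of Spaca1 and Txndc2 had 230.9 and 357.1.

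The first question is what kinds of repeat RNA each extract held. Transposable elements (TE: LINE, SINE, LTR and DNA elements) took 86.5%, 86.9% and 84.5% of the repeat reads in the IP libraries, and 39.3%, 25.5% and 24.9% in the TOTAL libraries (86.0% ± 1.29 against 29.9% ± 8.13, SD, n = 3 each). The groups did not overlap. The mean was 60.8% in INPUT, and on beads only the share was 86.6%, 87.3% and 41.3%, so a high TE share was also seen in BO replicates 1 and 2. What took the place of TE reads in TOTAL was mostly 7SL, the RNA of the signal recognition particle, at 38.1%, 51.6% and 44.8% against 1.59%, 1.63% and 1.16% in IP. 7SL took 17.0% to 18.7% in INPUT and 0.00882% to 0.224% in BO, where every library was below IP. 7SK, the RNA that holds the elongation factor P-TEFb inactive, took 10.8%, 12.2% and 10.1% in TOTAL and 0.533%, 0.684% and 0.505% in IP. Reads on rRNA names ranged from 1.96% to 16.3% in TOTAL and from 2.26% to 5.86% in IP, and these ranges overlapped. Simple repeats took 3.59% ± 0.149 in IP and 1.5% ± 0.681 in TOTAL (SD, n = 3 each). Because 2 small RNAs fill much of TOTAL, values below are on the authors' upper quartile scale, which sets libraries equal on the bulk of repeat names. Scaled to library totals, the median TE subfamily would be 1.5 higher in IP on the log2 scale, in place of -0.04, 837 TE subfamilies would pass as higher and 0 as lower, so every fall of a TE below is relative to the bulk of repeat names.

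**Figure D1:**
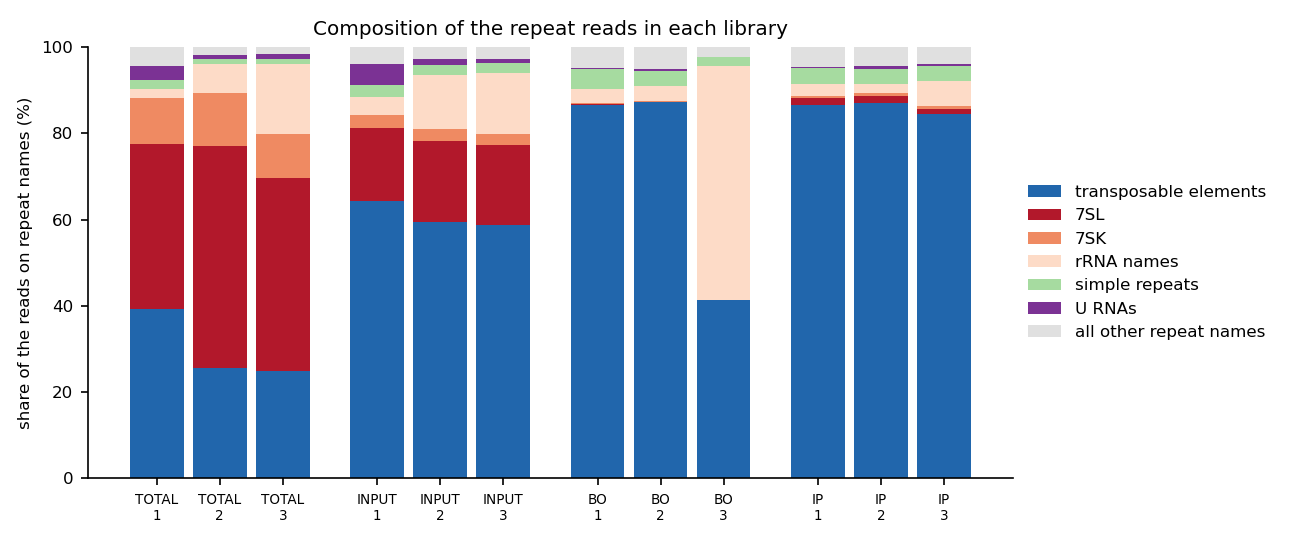
Share of the reads on repeat names (y axis, percent) taken by each kind of repeat in each of the 12 libraries (x axis), stacked to 100. TE reads fill 84.5% to 86.9% of the IP libraries and 24.9% to 39.3% of the TOTAL libraries, where 7SL and 7SK take most of the rest.

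On that scale the median repeat name was at a log2 difference of -0.05, and a small set passed the test in each direction. The linear model of limma called 34 of 1180 tested names higher in IP (2.88%) and 41 lower (3.47%), 75 in all (6.36%), at an adjusted p under 0.05 and at least 2-fold. Among the 938 TE subfamilies, 26 rose (2.77%) and 21 fell (2.24%), 47 in all (5.01%). Without regard to size, the IP libraries lay above all TOTAL libraries for 182 names (15.4%) and below all of them for 260 (22%). By class, 4 LINE, 19 LTR and 3 DNA subfamilies rose, and 1 LINE, 18 LTR and 2 DNA subfamilies fell, while none of 35 SINE names passed. The names for tRNA, snRNA and scRNA (small cytoplasmic RNA) went one way, with 5 of 15, 8 of 10 and 3 of 4 lower and none higher. Some of these calls did not hold when any 1 of several libraries was left out. U13 lost its call without IP replicate 2 and without each TOTAL library in turn (log2 -1.20 to -2.18). The call of tRNA-SeC(e)-TGA was lost without each IP library in turn, without TOTAL replicate 1 and without TOTAL replicate 3 (log2 -2.55 to -4.48).

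**Figure D2:**
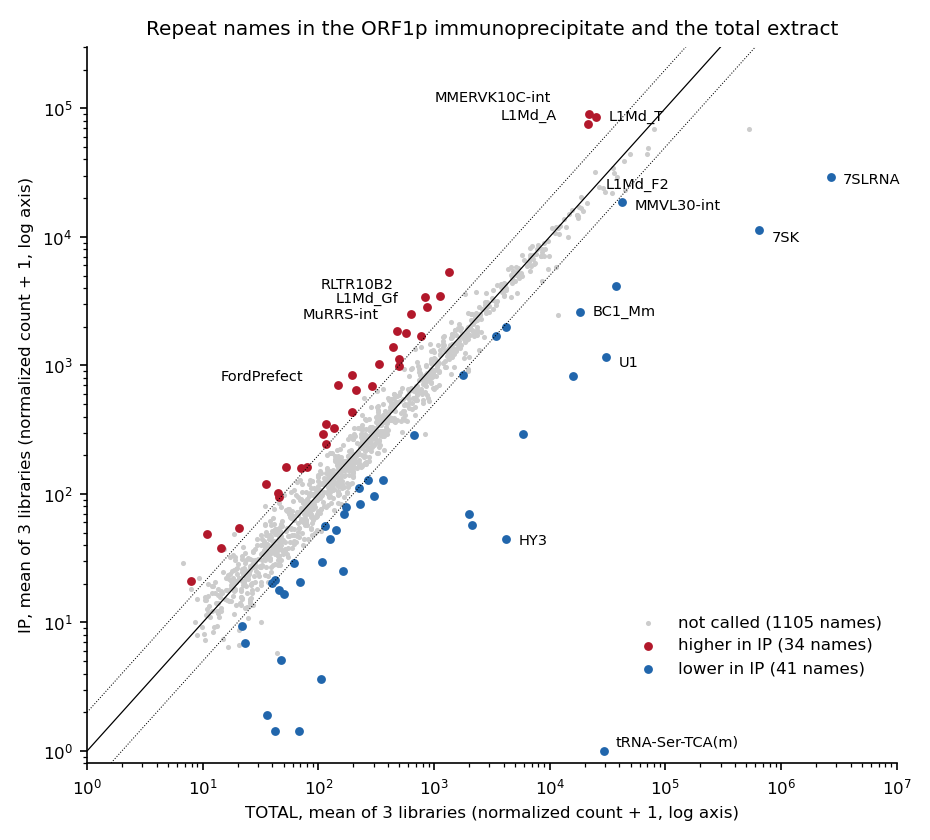
Mean normalized count plus 1 of each tested repeat name in TOTAL (x axis) and in IP (y axis), both on log axes, with the line of equality and dotted lines at 2-fold. Of 1180 names, 34 were called higher in IP (red) and 41 lower (blue); L1Md_A, L1Md_T and MMERVK10C-int rise at the top of the range and 7SL and 7SK lie far below the line.

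The young L1 families were high in IP. L1Md_A, one of the L1 families that still move in the mouse, had normalized counts of 95645, 75201 and 56029 in IP and 26309, 19342 and 18284 in TOTAL. Every IP library stood above every TOTAL library, and L1Md_A was 3.51-fold higher (log2 1.81 ± 0.20 SE, adjusted p = 7.64e-05 from limma). L1Md_T, also an active family, had 111455, 84051 and 61962 in IP against 31895, 21765 and 21772 in TOTAL. This was 3.37-fold higher (log2 1.75 ± 0.22 SE, adjusted p = 0.000198 from limma). L1Md_Gf, the rarest of the active families here, had 3946, 2595 and 2005 in IP and 1137, 786.9 and 690.4 in TOTAL, 3.21-fold higher (log2 1.68 ± 0.25 SE, adjusted p = 0.000617 from limma). In each of these families IP replicate 1 was the highest and IP replicate 3 the lowest IP library, and groups did not overlap. Against INPUT, IP was higher by 1.81 for L1Md_A, 1.87 for L1Md_T and 2.07 for L1Md_Gf on the log2 scale. Against BO the differences were 2.32, 2.05 and 1.99, and each of these families passed the test against both groups.

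The older F families differed less. L1Md_F2 had 35788, 31395 and 29065 in IP and 27753, 22956 and 22821 in TOTAL, with no overlap. It was 1.31-fold higher, under the 2-fold threshold (log2 0.39 ± 0.12 SE, adjusted p = 0.0341 from limma). L1Md_F3 was at log2 0.17 ± 0.11 SE and L1Md_F at 0.16 ± 0.14 SE, and neither passed (adjusted p = 0.311 and 0.451 from limma). A ratio of 2 families within a library does not depend on scaling, so the active families were also read against L1Md_F2. For L1Md_A over L1Md_F2 this log2 ratio averaged 1.21 ± 0.24 in IP and -0.21 ± 0.12 in TOTAL (SD, n = 3 each), a difference of 1.42. The lowest IP library, at 0.95, stood above the highest TOTAL library, at -0.08. The same difference was 1.37 for L1Md_T and 1.29 for L1Md_Gf, again with no overlap. Each of these 3 ratios gave p = 0.1 in a two-sided exact permutation test (adjusted p = 0.1), the smallest value that 3 against 3 libraries can give.

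Few other L1 names passed the test. Of the other 124 L1 names, 1 rose and none fell, and their median log2 difference was -0.01 against -0.05 over all names. The exception was L1ME3B, an ancient L1 fragment, with 2105, 1791 and 1494 in IP and 628.0, 563.0 and 537.2 in TOTAL (log2 1.63 ± 0.11 SE, adjusted p = 1.88e-06 from limma). L1ME3B was also high on bare beads, at a mean of 1140 in BO, and was 0.64 higher in IP than in BO (adjusted p = 0.000866 from limma). The LINE that fell was X7A_LINE, of the CR1 family, with 13.2, 17.9 and 30.2 in IP and 38.4, 46.1 and 39.4 in TOTAL (log2 -1.05 ± 0.27 SE, adjusted p = 0.0158 from limma). It loses its call in edgeR, in DESeq2 and without IP replicate 1, IP replicate 2 or TOTAL replicate 2.

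As shares of TE reads, LINEs took 29.7%, 28.0% and 26.5% in IP and 21.8%, 19.9% and 20.0% in TOTAL. SINEs took 31.2%, 35.9% and 37.5% in IP against 41.4%, 43.7% and 43.8% in TOTAL. Neither class overlapped between groups, and the difference was 7.48 percentage points for LINEs and -8.12 for SINEs (exact permutation p = 0.1, adjusted p = 0.2 over 4 classes for each, the former being the smallest possible). LTR elements took 33.4% ± 1.99 and 32.8% ± 0.302, and DNA elements 3.74% ± 0.261 and 3.70% ± 0.007 (SD, n = 3 each), and both overlapped between groups (exact permutation p = 1 and 0.7). In BO, SINEs took 33.3%, 35.1% and 37.0% of TE reads, within the range of IP, and LINEs 20.4% to 22.3%, below every IP library. Within LINEs the L1 family took 28.2%, 26.3% and 24.8% in IP and 20.3%, 18.2% and 18.4% in TOTAL. Of all repeat reads in place of TE reads, SINEs took 17.2 points more in IP and LINEs 17.9 points more, so the lower SINE share holds only within TE reads.

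Endogenous retroviruses and related LTR elements moved in both directions. They made up 581 of the 938 TE names tested, and 19 rose and 18 fell, shares near those of all TE names. The internal region of MMERVK10C, a mouse ERVK provirus, had 119611, 83727 and 65446 in IP and 25912, 20175 and 19696 in TOTAL, 3.99-fold higher (log2 2.00 ± 0.20 SE, adjusted p = 2.95e-05 from limma). It was the most abundant TE name that rose, and was 1.79 higher than INPUT and 2.38 higher than BO on the log2 scale. RLTR10B2, an LTR of the RLTR10 group, had 4268, 3349 and 2571 against 934.2, 726.6 and 847.8 (log2 2.00 ± 0.17 SE, adjusted p = 8.19e-06 from limma). The related RLTR10B and RLTR10C were also called, at log2 1.62 and 1.13. IAPEy-int, an internal region of intracisternal A-particle (IAP) type, had 6766, 5167 and 4057 against 1542, 1358 and 1174 (log2 1.95 ± 0.20 SE, adjusted p = 2.95e-05 from limma). In each of these 5 names every IP library stood above every TOTAL library.

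The ERV1 names LTRIS_Mm and MuRRS-int rose too. LTRIS_Mm had 1072, 746.4 and 688.6 in IP and 177.0, 211.8 and 197.9 in TOTAL (log2 2.07 ± 0.19 SE, adjusted p = 1.66e-05 from limma). MuRRS-int had 3086, 2448 and 1926 in IP and 644.7, 644.2 and 588.3 in TOTAL (log2 1.96 ± 0.14 SE, adjusted p = 2.08e-06 from limma). LTR85c rose from low counts, 9.90, 11.0 and 8.51 in TOTAL to 73.5, 39.7 and 30.2 in IP (log2 2.08 ± 0.43 SE, adjusted p = 0.00474 from limma). MERVL-int, the internal region of an ERVL provirus, was 0.96 higher on the log2 scale with adjusted p = 4.27e-06 from limma, just under 2-fold.

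IAP names split. Of 25 tested, 3 rose and 3 fell, against 2.88% and 3.47% of all repeat names, and the median log2 difference was 0.21. The 3 that rose were IAPEy-int, IAPEY5_I-int (log2 1.38) and IAPEY_LTR (log2 1.15). IAPEz-int, the most abundant IAP internal region, had 9953, 7854 and 7946 in IP and 8716, 8008 and 7061 in TOTAL, which overlapped (log2 0.11 ± 0.11 SE, adjusted p = 0.513 from limma). IAPLTR4 fell, with 89.7, 103.7 and 93.6 in IP and 302.5, 306.2 and 297.9 in TOTAL (log2 -1.65 ± 0.10 SE, adjusted p = 7.53e-07 from limma). Its internal partner IAPLTR4_I fell by 1.48 on the log2 scale (adjusted p = 7.7e-06 from limma), and IAPLTR3-int by 1.08. IAPLTR4 was also lower in IP than in INPUT (log2 -1.88) and BO (log2 -0.79).

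MMVL30-int, the internal region of the VL30 retrotransposon, was the most abundant TE name that fell. Its counts were 22601, 17767 and 15997 in IP and 46019, 40860 and 39661 in TOTAL, with no overlap (log2 -1.18 ± 0.14 SE, adjusted p = 0.000159 from limma, and 0.37 when scaled to library totals). Its mean in BO was 45386, and IP was 1.27 lower than BO on the log2 scale. Among LTR names that fell, those with the largest differences were less abundant. LTR45 had 35.3, 33.3 and 17.6 in IP and 70.5, 142.7 and 107.4 in TOTAL (log2 -1.86 ± 0.32 SE, adjusted p = 0.00153 from limma). MER50B was at log2 -1.75, RLTR44D at -1.64, RLTR41B at -1.53, RLTR46B at -1.45 and MMTV-int, the internal region of mouse mammary tumour virus, at -1.41. RLTR46B was also lower in IP than in BO, by 1.51 on the log2 scale (adjusted p = 5.61e-06 from limma). The other 5 were at -0.12 to 0.56 against BO, and none passed there (adjusted p = 0.202 for LTR45 and 0.227 for MER50B from limma).

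**Figure D3:**
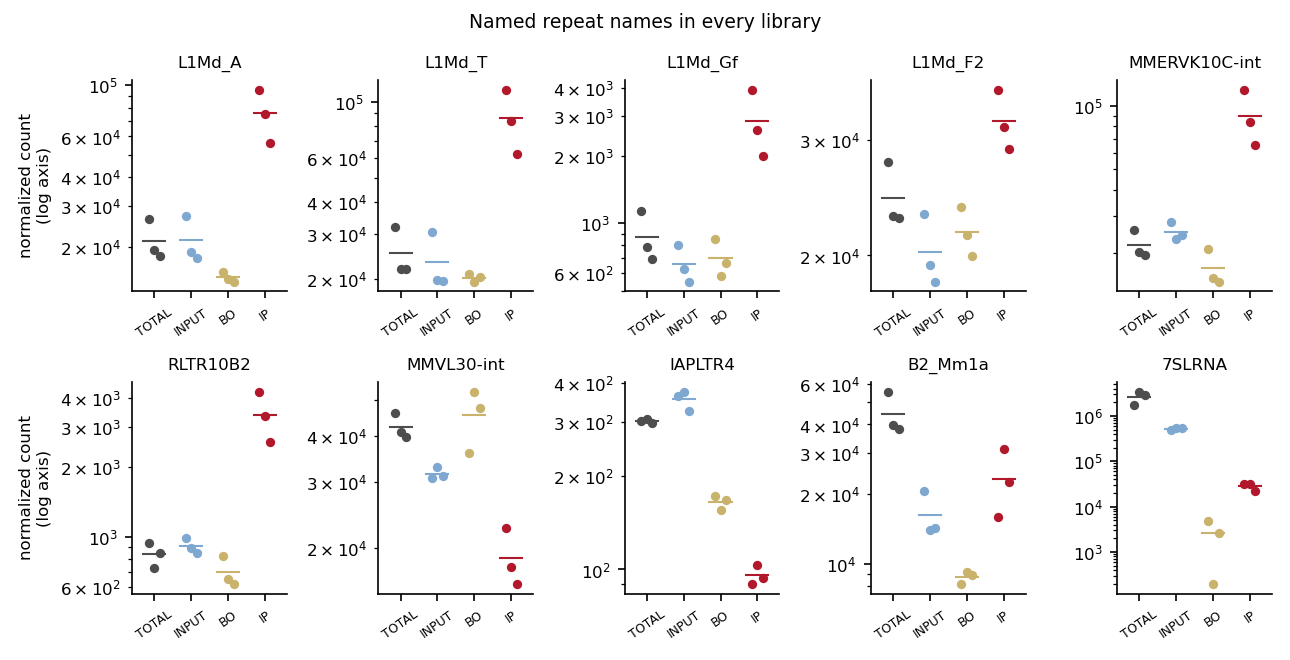
Normalized count (y axis, log scale, one range per panel) of 10 repeat names in each library of TOTAL, INPUT, BO and IP (x axis), with points for libraries and bars for group means. IP libraries stand above all others for the active L1Md families, MMERVK10C-int and RLTR10B2, and below all others for MMVL30-int and IAPLTR4, while B2_Mm1a and 7SL in IP lie between TOTAL and BO.

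SINEs were lower in small steps. Of the 35 SINE names, 22 had every IP library below every TOTAL library and none the reverse, against 22% and 15.4% of all names. The 35 names had a median log2 difference of -0.19. B1_Mm, derived from 7SL RNA, had 9725, 10035 and 10278 in IP and 15113, 14761 and 13746 in TOTAL, 1.45-fold lower (log2 -0.54 ± 0.07 SE, adjusted p = 0.000174 from limma), and it was 1.01 higher when scaled to library totals, less than the median TE. B2_Mm1a, a young B2 family derived from a tRNA, had 15882, 31194 and 22646 in IP and 55375, 39991 and 38201 in TOTAL (log2 -0.97 ± 0.23 SE, adjusted p = 0.0095 from limma). It stays just under 2-fold and passes it without IP replicate 2, TOTAL replicate 2 or TOTAL replicate 3 (log2 -1.04 to -1.21). B2_Mm1t was at log2 -0.67 ± 0.19 SE (adjusted p = 0.0311 from limma). Against the other groups B2_Mm1a was not low: IP was 1.36 higher than BO (adjusted p = 0.000641 from limma) and 0.48 ± 0.23 SE higher than INPUT (adjusted p = 0.135 from limma). INPUT itself was lower than TOTAL, by a log2 difference of -1.46 ± 0.23 SE (adjusted p = 0.00645 from limma).

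Among DNA transposons, FordPrefect, of the hAT group, gave the largest rise of any repeat name, with 829.6, 751.5 and 528.7 in IP and 186.8, 106.5 and 143.6 in TOTAL (log2 2.28 ± 0.20 SE, adjusted p = 9.6e-06 from limma). Charlie10 rose by 1.01 and Tigger12 fell by 1.13 on the log2 scale, and both are near the 2-fold threshold. Charlie10 loses its call without IP replicate 1, IP replicate 2, TOTAL replicate 2 or TOTAL replicate 3, and Tigger12 without IP replicate 2. The simple repeats (CTG)n and (CAG)n rose. (CTG)n had 2561, 1494 and 1494 in IP and 293.9, 516.9 and 617.0 in TOTAL (log2 1.97 ± 0.29 SE, adjusted p = 0.000577 from limma), and (CAG)n was at log2 1.65 (adjusted p = 0.00083 from limma). In all, 8 of 166 simple repeats rose and 2 fell, against 2.88% and 3.47% of all repeat names. The median log2 difference of the 166 was -0.02.

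The small structured RNAs stood lowest. 7SLRNA had 32328, 31962 and 22706 in IP and 1718746, 3410729 and 2949159 in TOTAL, 90.3-fold lower (log2 -6.50 ± 0.85 SE, adjusted p = 0.000253 from limma). 7SK had 10859, 13423 and 9865 in IP and 485275, 803117 and 665770 in TOTAL, 56.5-fold lower (log2 -5.82 ± 0.19 SE, adjusted p = 1e-09 from limma). IP was lower than INPUT for both (log2 -4.19 and -2.87) and higher than BO (log2 4.38 and 2.26). HY3, the Y3 RNA that binds the Ro protein, had 29.4, 60.2 and 41.9 in IP and 10624, 654.1 and 1236 in TOTAL (log2 -5.57 ± 1.18 SE, adjusted p = 0.00554 from limma). Groups did not overlap for any of the 3, and for HY3 TOTAL replicate 1 was far above the other TOTAL libraries. Without TOTAL replicate 1, HY3 was at log2 -4.39 (adjusted p = 0.0163 from limma), and without TOTAL replicate 2 at -6.40 (adjusted p = 0.00616 from limma). BC1_Mm, a repeat name of 1356 loci called after the rodent cytoplasmic RNA BC1, had 2509, 2641 and 2632 in IP and 32754, 11639 and 10476 in TOTAL (log2 -2.61 ± 0.37 SE, adjusted p = 0.000485 from limma). Its TOTAL replicate 1 was the highest TOTAL library, and without it BC1_Mm was at log2 -2.09 (adjusted p = 9.94e-05 from limma). Its IP libraries were nearly equal to each other, and the BO libraries, at 2983, 3198 and 3064, all stood above them. The value of this name mixes copies. By locus means, BC1_Mm_2860 held 88.2% of the TOTAL sum and 30.2% of the IP sum, at 14086 in TOTAL and 373.1 in IP (log2 -5.23). The other BC1_Mm loci together were at log2 -1.13. Loci have no coordinates here, so BC1_Mm_2860 was not matched to the Bc1 gene.

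Transcripts of 3 short RNAs are shown: Bc1 and Rny3, for the names BC1_Mm and HY3 above, and Rmrp, whose value is given with the genes. No value of the Bc1 gene itself was read. The sequences are those of GENCODE M21 on GRCm38, and capitals mark runs of at least 8 adenines. Bc1 lies at chr7:144914470-144914637 (plus strand), Rny3, the Y3 gene, at chr6:47781624-47781725 (plus strand), and Rmrp, the RNA of RNase MRP, at chr4:43492788-43493058 (minus strand). Of the 3, Bc1 alone holds such runs.
Bc1: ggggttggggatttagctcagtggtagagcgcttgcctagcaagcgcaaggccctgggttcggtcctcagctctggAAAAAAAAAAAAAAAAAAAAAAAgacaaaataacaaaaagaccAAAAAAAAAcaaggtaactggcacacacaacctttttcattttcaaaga
Rny3: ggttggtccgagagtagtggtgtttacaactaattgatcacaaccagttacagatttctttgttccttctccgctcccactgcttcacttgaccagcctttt
Rmrp: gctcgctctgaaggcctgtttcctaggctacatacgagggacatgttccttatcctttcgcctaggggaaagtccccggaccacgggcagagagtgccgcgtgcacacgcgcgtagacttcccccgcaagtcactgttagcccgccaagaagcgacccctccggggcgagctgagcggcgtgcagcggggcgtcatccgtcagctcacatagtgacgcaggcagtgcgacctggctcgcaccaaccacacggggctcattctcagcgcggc

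The U RNAs of splicing and of ribosome processing were low as a class. U1, which recognizes 5' splice sites, had 533.9, 1652 and 1296 in IP and 31235, 31378 and 29384 in TOTAL, 29.3-fold lower (log2 -4.87 ± 0.60 SE, adjusted p = 0.000159 from limma). U2, U4 and U5, of the spliceosome, were at log2 -3.22, -4.14 and -3.75, and U3, U8 and U17, of the nucleolus, at -4.19, -4.22 and -2.94. Without TOTAL replicate 1, U4 was at log2 -3.45 (adjusted p = 0.00823 from limma). U5 was near the threshold (adjusted p = 0.0413 from limma) and lost its call without TOTAL replicate 1, at log2 -2.44, without each IP library in turn, at -3.32 to -4.05 (adjusted p = 0.0746 to 0.142 from limma), and without BO replicate 3 (adjusted p = 0.0503 from limma). U1 was 0.72 ± 0.60 SE higher in IP than in BO on the log2 scale (adjusted p = 0.394 from limma). The tRNA name with the largest difference, tRNA-Ser-TCA(m), had no read in any IP library and 43656, 21719 and 22273 in TOTAL, where replicate 1 was the highest. With the lowest TOTAL library set against the highest floor of 3 counts in an IP library, it was at least 4922-fold lower. The BO libraries, on the same scale, ranged from 1.6 to 7515 for this name. TOTAL replicate 1 held 3.09% of its reads on U RNAs, against 1.04% and 1.08% in the other TOTAL libraries. LSU-rRNA_Hsa, the large ribosomal RNA, varied from 87173 to 1045983 among TOTAL libraries, and its log2 difference of -2.42 ± 1.22 SE was not called (adjusted p = 0.183 from limma).

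Single loci show how far the reads of a family lay in 1 copy or in many. The deposited locus table keeps reads that map to many places apart, so it covers part of each family, and it has no coordinates. Of 6188 loci with an average mean of at least 10, 1492 were at least 2-fold higher in IP (24.1%) and 1502 lower (24.3%). For LINEs this was 40.4% higher and 13.0% lower of 1616 loci, and for SINEs 15.6% and 32.6% of 2483. At an average of at least 100 the SINE direction turned, with 22 of 59 SINE loci higher and 14 lower (median log2 ratio 0.61, against -0.36 at 10). Of 29 LINE loci at that average, 41.4% were higher and 24.1% lower. A locus can pass this filter through 1 group alone, which fixes its direction, and such loci were not counted apart. The counts of loci in this paragraph are therefore not read as the share of a family that moved. In the L1Md_A family, 137 of 151 loci past the filter were higher and 2 lower. Over all 6562 L1Md_A loci, with no filter, the log2 ratio of summed means was 1.78. The locus with the most reads held 0.827% of the family's IP sum. L1Md_T had 132 of 148 higher and 4 lower, and its top locus held 0.720%. L1Md_F2, under the 2-fold threshold as a subfamily, had 84 of 151 higher and 9 lower, at a log2 ratio of summed means of 0.69. MMERVK10C-int had 84 of 153 higher and 5 lower, with 9.41% in its top locus, MMERVK10C-int_186, whose mean was 1631 in IP and 187.3 in TOTAL. MMVL30-int had 47 of 65 lower and 1 higher, and B2_Mm1a 104 of 169 lower and 11 higher.

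Some subfamilies with large rises rested on 1 locus. FordPrefect_30 held 91.7% of the FordPrefect IP sum, and without it the log2 ratio of the sums went from 2.01 to 0.28. MuRRS-int_196 held 79.3% of its family, and the ratio without it went from 2.16 to 0.46. For RLTR13B4 and LTR85c the top locus held 82.8% and 98.1%, and the ratio without it was 0.14 and 0.31. The locus taken out was chosen for its IP mean, so the ratio tends to drop by construction. Other subfamilies that rose had no such rise in this table. The log2 ratio of locus sums was 0.02 for L1ME3B, 0.13 for Charlie10, 0.01 for IAPEY_LTR and 0.15 for ERV3-16A3_I-int, and it was negative for ERVB5_2-LTR_MM, LTR72_RN, MER91B and RLTR19A (-0.29 to -0.64), from small sums. For 7SLRNA it was -2.35. Leaving out the top locus left L1Md_A at 1.80 from 1.78, L1Md_T at 1.75 from 1.76, and MMERVK10C-int at 1.45 from 1.55. The single locus with the highest ratio among well-covered ones was MMERVK10C-int_2844, at 200.7 in IP and 14.5 in TOTAL, and the lowest was 7SK_211, at 0.976 and 221.5.

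For genes, the question is which transcripts beside L1 were in the immunoprecipitate. The table lists 20981 genes, and 14666 had an average of the IP and TOTAL means of at least 10. Of these, 2997 were at least 2-fold higher in IP (20.4%) and 3838 at least 2-fold lower (26.2%), with a median log2 ratio of -0.03 (log2 of mean plus 1, which understates low genes). Of the 14666, 670 passed this filter through TOTAL alone and 257 through IP alone, which fixed the direction of their ratio. At an average of at least 100, which 3 genes reached through TOTAL alone and none through IP alone, 22.8% of 10968 genes were higher and 22.2% lower. Lists in which more than 3 members passed through 1 group alone are given at that average or not counted. With both groups set to the same sum over genes the median would be -0.54, and the split would be 1439 for genes at least 2-fold higher in IP than in TOTAL and 5570 for genes at least 2-fold lower in IP than in TOTAL. Over the same genes the median was 0.14 for IP vs. INPUT and 0.80 for IP vs. BO. The 1000 genes with the largest means held 51.5% of the summed IP mean and 41.4% of the summed TOTAL mean. Means are not corrected for length, so levels of different genes are not compared. TOTAL is a bulk extract, in whose levels fewer cells of a type and less RNA per cell cannot be told apart.

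The 12 highest ratios among genes with an average of at least 100 were led by Cers3 (chr7:66743504-66823691), a ceramide synthase of testis and skin, at 2952 in IP and 248.2 in TOTAL, 11.9-fold. Tktl1 (chrX:74177259-74208500), a transketolase-like enzyme, followed at 17946 and 1620, 11.1-fold. Its relative Tktl2 was at 7048 and 680.3, and Ccnb3, a meiotic cyclin, at 23914 and 2495. The others were Ppef1, Glipr1l2, 4933425L06Rik, Kctd19, Mlc1, Ptprq, Rad51ap2 and A1cf, 9.20 to 11.0-fold higher. All 12 were at least 2.08 higher than INPUT and 1.86 higher than BO on the log2 scale. These values share the IP libraries by which the genes were chosen, so they tend to be high by construction.

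Genes with the largest IP means are given next, and since they were chosen by that mean, their ratios to TOTAL tend to be high by construction. Top2a, DNA topoisomerase II alpha, had 84223 in IP and 10425 in TOTAL, 8.08-fold, Hsp90aa1, the inducible HSP90, 75655 and 11147, and Sycp1, a filament of the synaptonemal complex, 71553 and 9433. Atr, a checkpoint kinase, had 68528 and 10927, and Dazl, a germ cell translation regulator, 56592 and 13894. Usp9x and Trip12 were 2.76-fold and 3.20-fold higher than TOTAL, and Usp9x was level with BO (log2 -0.05).

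The genes with the 12 lowest ratios have short transcripts, the longest being 143 bases for Vaultrc5 and 1518 for Rnase4. Rpph1 (chr14:50807449-50807767), the RNA of RNase P, had 1151 in IP and 134155 in TOTAL, 116-fold lower, and the vault RNA Vaultrc5 had 4.96 and 430.3. The protein-coding genes among them included Apoc1, an apolipoprotein, at 96.7 and 2865, Tmsb4x, thymosin beta 4, at 627.5 and 16655, Tyrobp, an adaptor of myeloid cells, at 11.9 and 312.7, and Ifitm2, S100a6, Rnase4, Wfdc17 and Cst8, 22.5 to 25.9-fold lower. The largest TOTAL means, a choice that favours low ratios, were after Rpph1 Clu, clusterin, at 66084 (20786 in IP), Malat1, a nuclear noncoding RNA, at 45485 (17766), Eef1a1 at 43794 (29192), and Rmrp at 41961 (3074). Aldh1a1, Actb and Serinc3 were 4.65-fold, 2.56-fold and 2.95-fold lower in IP.

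Meiotic genes were high in IP as groups. Of 23 meiotic recombination genes, 19 were at least 2-fold higher and none lower, with a median log2 ratio of 2.13 against -0.03 over all genes. Lists hold 30 symbols here and 13 for the synaptonemal complex, and members under the filter or under another symbol are not counted. Msh4, a crossover factor, had 3219 in IP and 376.4 in TOTAL, Spo11, which makes the meiotic double-strand breaks, 1596 and 202.4, and Dmc1, the meiotic recombinase, 7559 and 1386. Brca2 was at log2 2.14 and Tex15 at 2.32, while Mei4 was at 0.48. Of the 10 synaptonemal complex and axis genes tested, 7 were higher and none lower (median 1.89), with Sycp1 at 2.92, Hormad1 at 2.65, Sycp3 at 2.25 and the short Syce3 at 0.09. Members named beyond the fixed rule were chosen after their values were seen.

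Chromosome structure and division genes followed. Among 22 cohesin and condensin genes, 17 were higher and none lower (median 1.83). The meiosis-specific cohesins Rad21l, Stag3 and Smc1b were at log2 2.80, 2.67 and 2.63, while Rec8 was at -0.68 and the general subunit Rad21 at -0.88. Kinetochore and spindle checkpoint genes had 19 of 30 higher and 2 lower (median 1.31), from Bub1 at 2.74 to the centromeric histone Cenpa at -1.40. Kinesins, microtubule motors, had 24 of 41 higher and none lower (median 1.3), and Kif4-ps, which shares sequence with Kif4, is uncertain in counting. Fanconi anaemia genes, of crosslink repair, had 5 of 11 higher and none lower (median 0.67), with Fanci at 2.20 and Fancd2 at 2.17.

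Genes of the piRNA pathway and Tudor proteins had 14 of 22 higher and none lower (median 1.47). Mov10l1, the helicase that feeds piRNA precursors, had 22263 in IP and 2558 in TOTAL, 8.70-fold. Piwil2, a PIWI protein, had 21119 and 2997, and Ddx4, the germ cell helicase Vasa, was at log2 2.33. Pnldc1, the trimmer of piRNA ends, was at -0.33. Of 23 genes for stress granule proteins and known protein partners of ORF1p, 12 were higher and 1 lower (median 1.12). Upf1, of nonsense-mediated decay, was at 2.29, Fmr1 at 2.03, the poly(A)-binding protein Pabpc1 at 2.00 and G3bp1 at 1.23, but G3bp2 at -0.72 and Prkra at -1.42. The CCR4-NOT deadenylase genes had 2 of 12 higher, near the 20.4% of all genes, and none lower (median 0.60), with Cnot1 at 1.68 and Cnot8 at -0.06.

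Markers of germ cell stages were read by list. Pachytene spermatocyte markers had 7 of 12 tested members higher and 1 lower (median 1.68), with Tktl1, Piwil1 at log2 2.36, Hspa2, a meiotic HSP70, at 2.04 and Mybl1, a transcription factor of pachytene cells, at 1.84. Tcp10a and Tcp10b, near-identical copies, were below the filter. Spermatogonia markers had 1 of 17 higher and 4 lower (5.88% and 23.5%, the second near the 26.2% of all genes; median -0.47), from Sohlh2 at 2.02 through Kit at -0.33 to Crabp1 at -2.89. Of 19 spermatid markers, 10 passed the filter, and 6 of these did so through TOTAL alone, such as Tnp2 at 0.714 in IP and 39.3 in TOTAL. The filter fixed the direction of those 6, so nothing is read from them. The spermatid markers with an average of at least 100 were Spaca1 at 0.01 and Txndc2 at -0.95.

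Markers of most somatic cell types were low in IP. All 11 Leydig markers were at least 2-fold lower (median -2.56). Cyp17a1, an enzyme of androgen synthesis, had 4998 in IP and 29894 in TOTAL, Star, which carries cholesterol into mitochondria, 2524 and 14852, and Insl3, a Leydig hormone, 90.1 and 1744. Of 15 Sertoli markers, 13 were lower and none higher (median -1.82), with Tsx at log2 -4.21, Clu at -1.67, Sox9, the Sertoli fate factor, at -0.73 and Inhbb at 0.01. Macrophage markers had 7 of 8 lower (median -3.01), with Lyz2 at -3.69 and Csf1r at -0.96. Peritubular myoid markers, the smooth muscle of the tubule wall, had 6 of 7 lower (median -2.59), and the long Myh11 was at 0.21. Endothelial markers had 2 of 6 lower, near the 26.2% of all genes (median -0.27), and the 1 erythroid marker tested, Alas2, was at -1.75. For Leydig, Sertoli and macrophage markers the median was also negative in IP vs. INPUT (-1.60, -1.54 and -1.84) while against BO it was 0.48 for Leydig cells, 1.01 for macrophages and -0.06 for Sertoli cells. Among markers with a longest transcript of at least 3 kb, the median was -2.22 for Leydig cells, -1.22 for Sertoli cells, -1.23 for myoid cells, -1.36 for macrophages and -0.23 for endothelial cells, over 2 to 5 genes each.

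**Figure D4:**
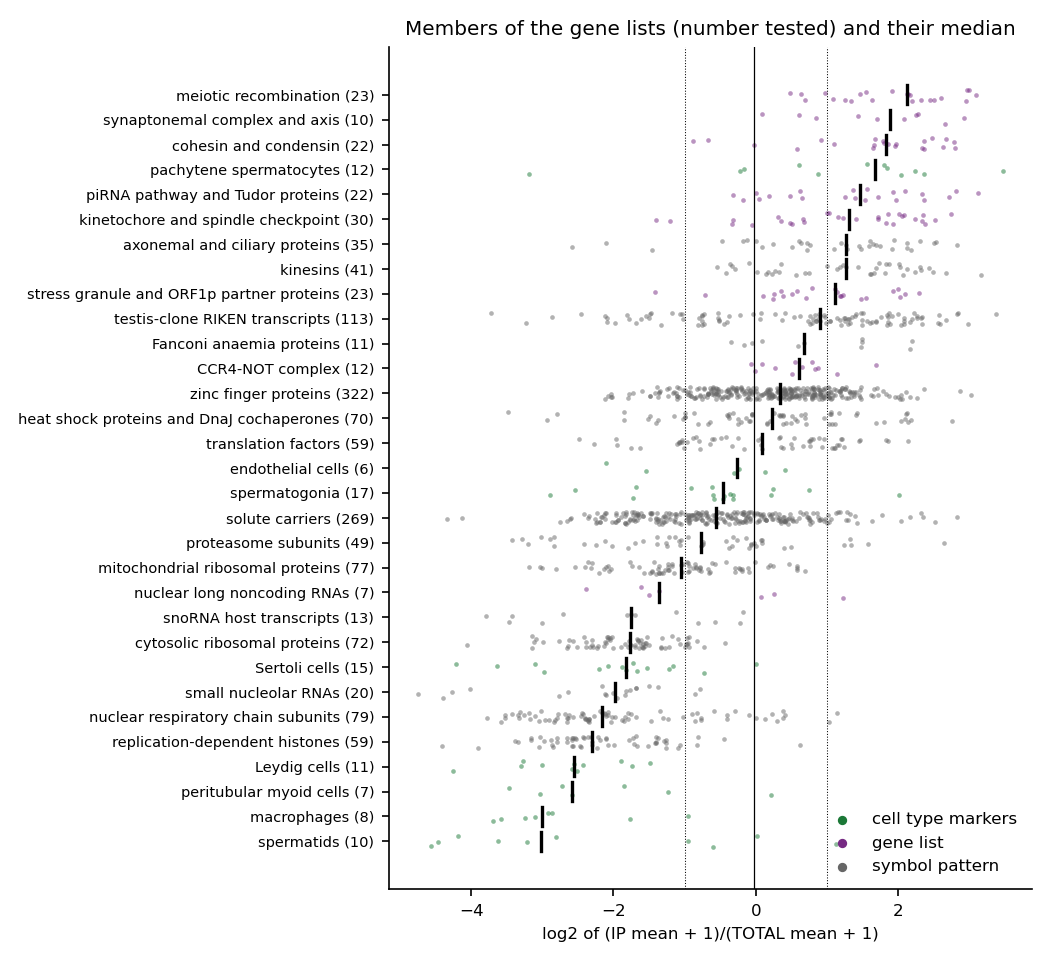
Log2 ratio of the authors' mean plus 1 in IP to that in TOTAL (x axis) for each tested member (points, with those that passed the filter through 1 group alone) of 31 gene lists (y axis, number of members in brackets), with a bar at each median, a line at the median of all genes and dotted lines at 2-fold. Medians of the meiotic lists lie right of the 2-fold line, and those of ribosomal, respiratory, histone, Leydig and macrophage genes left of it.

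Genes for ribosomal proteins and the respiratory chain were low against TOTAL, and against INPUT they lay nearer to other genes. Of 72 cytosolic ribosomal protein genes, 62 were at least 2-fold lower and none higher (median -1.76), from Rps4x at log2 -4.05 to Rpl9 at -0.43. The same genes had a median of 0.47 against INPUT and 2.52 against BO. Respiratory chain subunits encoded in the nucleus had 60 of 79 lower and 2 higher (median -2.17, and -0.31 vs. INPUT, where all genes had 0.14), with Cox7b at -3.78 and Atp5a1, a large subunit of ATP synthase, at 12427 in IP and 12434 in TOTAL. Mitochondrial ribosomal protein genes had 41 of 77 lower and none higher (median -1.05 against 0.30 vs. INPUT), from Mrpl14 at -3.19 to Mrpl3 at 0.69. Ribosomal protein genes have many pseudogene copies, and their counts are uncertain for that reason.

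Replication-dependent histones, whose messages end without a poly(A) tail, had 37 of the 41 members with an average of at least 100 lower and none higher, and 8 of the 59 past the filter did so through TOTAL alone. Hist1h4a was at log2 -3.91 and Hist1h2ba, a testis H2B, at -0.81, while Hist1h1t, the linker histone of spermatocytes, was at 0.62. Many histone genes are near-identical copies, so single values are uncertain. Proteasome genes had 23 of 49 lower and 5 higher (median -0.77). Psma8, the proteasome subunit of spermatocytes, was at 2.65 and the long Psme4 at 1.57, while the immunoproteasome genes Psmb8 and Psme1 were at -3.42 and -3.29. The 5 include Psmc3ip, a recombination gene taken in by the symbol pattern.

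Noncoding transcripts were mixed. Of the 20 small nucleolar RNAs that passed the filter, 13 did so through TOTAL alone, which fixed their direction, so no count is read from that list. The 4 members with an average of at least 100 belong to the Cajal body RNAs, which guide modification of spliceosomal RNAs: Scarna13 was at log2 -2.17, Scarna10 at -1.50, Scarna6 at -1.37 and Scarna2 at -0.85. The host transcripts of small nucleolar RNAs had 9 of 13 lower and none higher (median -1.75), 2 of them past the filter through TOTAL alone, with Gas5 at log2 -1.75 and Snhg1 at -0.22. Of 7 nuclear long noncoding RNAs, 4 were lower, Malat1 at -1.36, Neat1 at -1.62, Rian at -1.50 and Meg3 at -2.39, and Kcnq1ot1 was 2.34-fold higher. Malat1 and Neat1 are long, at 6983 and 20771 bases. At an average of at least 100, 8 of 31 lincRNAs were higher and 12 lower, against 22.8% and 22.2% of all genes, and 3 of 16 antisense transcripts were higher and 2 lower. Of the 129 lincRNAs past the filter, 24 passed through TOTAL alone and 15 through IP alone, and of the 102 antisense transcripts 21 and 4.

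Further lists were read in the same way. Axonemal and ciliary genes had 20 of 35 higher and 3 lower (median 1.27), with Ift80 at log2 2.82 and Ift43 at -2.10. Testis-clone RIKEN transcripts had 23 of the 42 members with an average of at least 100 higher and 8 lower, and of the 113 past the filter 11 passed through IP alone and 7 through TOTAL alone, with 4933425L06Rik at 3.38 and 4933402E13Rik at -2.87. Zinc finger genes with Zfp symbols had 54 of 219 higher at that average, near the 22.8% of all genes, and 10 lower. Of the 322 past the filter, 7 passed through TOTAL alone and 3 through IP alone (median 0.34 over the 322). The highest named value was Zfp541 at 3.02. Heat shock proteins and their DnaJ partners had 18 of 70 higher and 11 lower (25.7% and 15.7%, against 20.4% and 26.2% of all genes). Their median was 0.23, with Hsp90aa1 at 2.76 and Hspb1 at -2.93. Translation factors had 13 of 59 higher and 13 lower, 22.0% each way and near the shares of all genes (median 0.08), with Eif4ebp3 at 2.13 and Eef1d at -2.48. The medians of the zinc finger, heat shock and translation factor lists turn negative (-0.17, -0.28 and -0.43) when both groups are set to the same sum over genes. Solute carriers, membrane transporters, had 16 of 191 higher and 55 lower at an average of at least 100, against 22.8% and 22.2% of all genes. Of the 269 past the filter, 11 passed through TOTAL alone and 4 through IP alone. Of 279 olfactory receptors listed, 9 passed the filter, 3 through IP alone and 3 through TOTAL alone, and nothing is read from them. Genes of the mitochondrial genome were not analysed here.

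Longer messages stood higher in IP. Protein-coding genes whose coding sequence is under 0.5 kb had a median log2 ratio of -1.21 (n = 1476 genes), and the median ran through -0.67, -0.03, 0.50 and 0.83 to 1.14 for coding sequences of at least 5 kb (n = 644 genes). In that last class, 340 of the 540 genes with an average of at least 100 were at least 2-fold higher and 6 lower. Of the 1476 genes in the shortest class, 123 passed the filter through TOTAL alone and 17 through IP alone. By both UTRs together the medians ran from -0.67 under 0.5 kb to 0.33 at 4 kb or more. Among genes with a coding sequence of 1 to 2 kb, UTR classes ran from -0.44 to 0.24, and among genes with UTRs of 1 to 2 kb, coding classes ran from -0.88 to 1.06. Across 14070 protein-coding genes, which share the same libraries and are not independent, Spearman's rho with the log2 ratio was 0.47 for coding length, 0.42 for the longest transcript, 0.36 for the number of exons, 0.19 for UTR length and -0.16 for GC content.

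The same length classes behaved otherwise in the other comparisons. From the shortest to the longest coding class the median went from 0.00 to 0.41 against INPUT, and from 1.10 down to 0.50 against BO. By UTR length the median against BO went from 1.45 under 0.5 kb to -0.34 at 4 kb or more, a wider span than against TOTAL, and against INPUT from 0.01 to 0.06. These 3 comparisons share the IP libraries, and each was normalized by itself. Meiotic recombination genes with a longest transcript of at least 3 kb had a median against TOTAL of 1.92, and those under 3 kb 2.32.

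**Figure D5:**
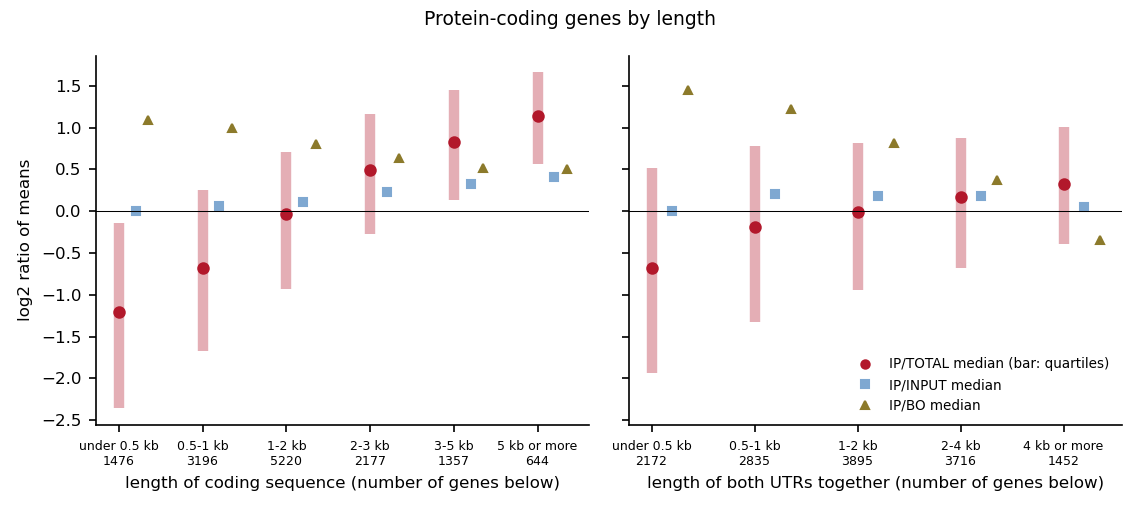
Median log2 ratio (y axis) of protein-coding genes by length of the coding sequence (left) and of both UTRs together (right), with the number of genes under each class. Red points are IP vs. TOTAL with bars for quartiles, squares IP vs. INPUT and triangles IP vs. BO; the IP vs. TOTAL median goes from -1.21 to 1.14 over coding classes, and over UTR classes the IP vs. BO median goes from 1.45 to -0.34.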

How the data were processed

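RNA of testes from Mael-/- mice was sequenced by the authors as rRNA-depleted stranded libraries, with 3 libraries in each of the groups TOTAL, INPUT, BO and IP, which were taken from the labels. Alignment by the authors used STAR 2.6.0c and the mm10 genome. Telescope placed ambiguous repeat reads, which they added up by repeat name and brought to 1 upper quartile in EBSeq. The deposited signal for repeats is this normalized count per library. All of its values came out as whole multiples of 1 read (100% within a tolerance of 0.1 reads), which gave the recovered reads. For genes and single repeat loci, the deposited signal is the mean of DESeq2 1.24.0 normalized counts per group, made by the authors separately for IP with each other group, with no value per library. Those tables also hold the authors' own log2 fold changes, standard errors, statistics and p-values, which were not used. No per-sample column was left unused (0). Rows of unmapped, multimapping, ambiguous and no-feature reads were kept out.

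Repeat names whose mean across all 12 libraries reached 10 (1180 of 1528) were fitted in limma 3.58.1 under R 4.3.3 as log2(normalized count + 1). All 4 groups entered the model, and p-values were adjusted over names by Benjamini and Hochberg. A name was called past 2-fold with an adjusted p under 0.05. Shares of TE reads and ratios of L1 families were compared by two-sided exact permutation tests over libraries. Genes and loci with an average of the IP and TOTAL means of at least 10 were described by log2((IP mean + 1)/(TOTAL mean + 1)), with no test. Of 20981 gene symbols, 20707 matched GENCODE M21, which gave lengths and positions on GRCm38. The limma step was tested on simulated data.

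Some items are not reported here. The genes named were, at an average of at least 100, the 12 highest and 12 lowest ratios, the 8 largest means in each group, and in each list the 2 members with the largest averages and the highest and lowest ratio. The repeats named were, of those called, the 8 highest and 8 lowest TE subfamilies, the most abundant called name of each class and direction, and a fixed set of L1, B1, B2, ERV and 7SL names. The loci named were the 5 highest, 5 lowest and 5 with the largest IP mean. Members and lists were chosen with earlier results of these data known.

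Alternatives were pseudocounts of 0.1 and 10, no filter or a mean of at least 100, other scalings, a fit of IP and TOTAL only, a replicate block, edgeR 4.0.16 and DESeq2 1.42.0 on recovered reads, each replicate left out, and, chosen after seeing the data, BO replicate 3 left out. Tables and figures were made in Python 3.11.15 with pandas 2.3.3, numpy 2.4.6, scipy 1.17.1 and matplotlib 3.10.9.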

Additional observations from a re-analysis of the deposited data

How the results depend on the processing

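Scaling to library totals changed the most results. Scaled to library totals, limma called 837 TE subfamilies higher and 0 lower, and 1031 repeat names in all. On that scale the log2 difference was 0.0587 for subfamily IAPLTR4_I, 0.0911 for subfamily RLTR46B, 0.12 for MMTV-int, 0.41 for Tigger12, 0.44 for X7A_LINE, 0.37 for MMVL30-int and 1.01 for B1_Mm. With all repeat names as the total, the difference in share was 17.9 points for LINEs, 17.2 for SINEs (negative within TE reads), 18.9 for LTR and 2.11 for DNA elements. A minimum mean of 100 left 13 lower TE subfamilies of fewer tested. The number of genes at least 2-fold higher in IP than in TOTAL went from 2997 to 1439 with the same sum over genes and to 640 past 4-fold. The number of genes at least 2-fold lower in IP than in TOTAL went from 3838 to 2436 at an average of at least 100, where fewer were tested, and to 1563 past 4-fold.

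The other fits called 22 to 29 TE subfamilies higher and 16 to 21 lower (edgeR 27 and 18, DESeq2 29 and 17, each with all 26 higher ones among them), and leaving out BO replicate 3 gave 26 and 21. With 1 library left out at a time, counts were 21 to 27 higher, 18 to 23 lower and 62 to 73 names in all. The family ratios over L1Md_F2 ranged from 1.32 to 1.55 for L1Md_A, 1.238 to 1.51 for L1Md_T and 1.11 to 1.45 for L1Md_Gf, and the share differences from 6.66 to 8.26 for LINEs, -9.43 to -6.29 for SINEs, -0.55 to 1.25 for LTR and -0.0783 to 0.179 for DNA elements. Of the single subfamily values, 18 lost and 7 gained a call. Among called repeat names, changes of sign came with scaling to library totals, which moves all names up alike, and B2_Mm1a (0.58) and B2_Mm1t (0.88) also changed sign there.

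Same-numbered IP and TOTAL libraries had correlations of -0.06, -0.14 and 0.12 of their deviations over 1180 names, so over all names the numbers showed no pairing. For L1Md_A, L1Md_T and L1Md_Gf, replicate 1 was the highest library in IP and in TOTAL. A replicate block gave 26 higher and 20 lower TE subfamilies and 77 names in all. Splitting loci by a length of 5 kb was not run, because locus coordinates were not used here. Low read numbers limit rare names in every library, and genes carry no replicate error.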

Other observations

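Protein-coding genes were also read by position and structure, as descriptions with no test. The 575 X-linked genes tested had a median log2 ratio of -0.30, the 13487 autosomal genes 0.00 and the 8 Y-linked genes 1.82. Of the X-linked genes, 16 passed the filter through TOTAL alone and 20 through IP alone, and of the autosomal genes 539 and 206. At an average of at least 100, 110 of 441 X-linked genes were at least 2-fold higher in IP and 135 lower. The autosomes had 2357 higher and 2257 lower of 10366, and all genes 22.8% and 22.2%. The share of X-linked genes that were higher was near that of all genes, and the share that were lower was above it. Genes with 20 or more exons had a median of 0.84, and at an average of at least 100, 845 of 1740 were higher and 52 lower. Genes with 2 to 4 exons had a median of -0.64, and at that average 221 of 2113 were higher and 799 lower. Of the 3041 genes with 2 to 4 exons past the filter, 208 passed through TOTAL alone and 59 through IP alone. By GC content of the longest transcript, the median ran from 0.37 under 42% to -0.29 at 54% or more. All 14666 genes tested, coding or not, were also read by the average of both means. This average holds the same means as the ratio, so a high IP mean lifts a gene into a higher class. No trend with level is read for that reason. The median was -0.29 from 100 to 1000 and 1.53 for the 255 genes at 10000 or more, of which 64.7% were higher. From 10 to 100 it was -0.53, but 667 of those 3698 genes passed the filter through TOTAL alone and 257 through IP alone. The filter fixed the direction of these, so nothing is read from that class. These features overlap with length. Among genes with a longest transcript of 3 to 5 kb, the GC classes had medians of 0.27, 0.26, 0.23, 0.01 and 0.14, from low to high GC. The other features were not separated from length.

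Some single loci stood near their TOTAL level and others far from it. The ERVK locus ERVB4_1-I_MM-int_12 had the second largest IP mean of all loci and stood near its TOTAL level (4153 and 5261), as did ERVB4_1B-I_MM-int_144 (1171 and 1295) and ERVB4_1B-I_MM-int_515 (1160 and 1100). RLTR13B4_378 was at 413.3 in IP and 33.1 in TOTAL, RLTR10B2_833 at 337.3 and 29.8, and MMERVK10C-int_3175 at 419.0 and 40.2. The lowest ratios after 7SK_211 were the Y RNA loci HY3_4, at 38.4 and 4151, and HY1_14, at 45.5 and 2109, the 7SK locus 7SK_356, at 5844 and 348757, and ID4__11448, of the ID family of SINEs, at 4.64 and 255.4. None of the 4 ID subfamilies was called.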
